A study of Mus musculus with 4 samples.

Results

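Chromatin loops bring 2 distant stretches of DNA together at their feet, or anchors, and in a contact map they appear as a spot that is brighter than the ground around it. Many are held by cohesin, which extrudes DNA until it meets CTCF bound in the inward direction, while others join enhancers to gene starts or join genes held silent by Polycomb. The pairs described here are loop-like spots seen with Micro-C, which cuts cross-linked chromatin with micrococcal nuclease and joins the ends that lie together, in mouse embryonic stem cells (ESCs) and below a set limit in motor neurons (MNs) made from them. The search covered 72614157 pairs of 8 kb bins on the 19 autosomes, 13 to 250 bins (104 kb to 2000 kb) apart, and 6002 pairs were kept.

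Each cell state had a WT and a PATZ1 KO library of the E14 line. PATZ1 is a zinc finger protein that binds G-rich DNA, and its gene was knocked out with CRISPR/Cas9 and a guide to its locus in lines grown from single clones. WT and PATZ1 KO ESCs were grown with LIF and 2i, and WT and PATZ1 KO MNs were derived from such ESCs by a protocol for cervical MNs, through embryoid bodies patterned with retinoic acid and an agonist of smoothened. There was 1 library in each of the 4 groups, so nothing below has a replicate check and no p-value is given; intervals are 95% and cover counting error only. A contact map measures no transcripts, so the cell types could not be checked against their markers, and contacts held by fewer cells cannot be told apart from weaker contacts in every cell.

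Membership was decided on the summed contacts of the WT and PATZ1 KO libraries. The ring of a pair is the mean over the 96 pairs that lie 3 to 5 bins away from it. A pair was loop-like in ESCs with at least 20 contacts and at least 2 times its ring, and it counted as absent from MNs with an MN ring of at least 2 and fewer than 1.2 times that ring. Of 28971 loop-like ESC pairs with such an MN ring, 7022 (24.2%) met the limit in MNs, and joining those within 2 bins left the 6002 ESC-only pairs. The ESC and MN contacts at the pairs themselves are therefore a description and no evidence of a difference. For comparison, 13579 joined pairs were loop-like in ESCs whatever their state in MNs, 1814 were loop-like in both states, and 1141 met the same rule with the states exchanged. The least of 20 contacts was the same in both states, though the ESC depth was 1.44 times that of the MNs. With the least ESC contacts raised in that proportion, 739 ESC-only pairs were found. The numbers of ESC-only and MN-only pairs therefore do not show which state had more.

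Pairs are listed in the deposited data only when both libraries of a cell state had at least 1 contact. A pair missing from MNs thus had no contact in at least 1 of the MN libraries, its true sum is unknown, and it was set to 0. This applied to 1077 of the 6002 pairs (17.9%). Columns of the lists carry numbers and no sample names, and the first was read as WT and the second as PATZ1 KO, following the wording of the comparison. In the bin that holds the start of Patz1 (chr11:3288001-3296000), ESCs had 290 contacts with WT and 178 with PATZ1 KO, and MNs had 179 and 109. Scaled to the autosomal totals, PATZ1 KO was lower by a log2 ratio of -0.60 (-0.88 to -0.33) in ESCs and -0.79 (-1.14 to -0.43) in MNs. Chromosome 11 as a whole had median contacts per bin of 0.884 (WT) and 0.877 (PATZ1 KO) times the median over the autosomes in ESCs. In MNs these were 0.967 and 0.852, a difference that the scaling does not remove. No other bin was set beside that of Patz1.

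CTCF is the protein most often found at loop anchors, and 29 of the ESC-only pairs had its core motif forward in the left anchor and reverse in the right anchor, so that the motifs faced each other. This is 0.483% of the ESC-only pairs, beside 1.42% of all loop-like ESC pairs. The motif, searched on both strands, reads CCAC, any base, AG, any 2 bases and GGC. Of the 29 ESC-only pairs with facing motifs, the 3 with the most ESC contacts are shown, read from GRCm38 on the strand of the motif. The motif is in capitals with 20 bases on either side.
Pair 1, left anchor, chr6:114815033-114815084, plus strand, in an intron of Atg7: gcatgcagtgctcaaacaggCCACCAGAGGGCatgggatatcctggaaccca
Pair 1, right anchor, chr6:114924822-114924873, minus strand, in an intron of Vgll4: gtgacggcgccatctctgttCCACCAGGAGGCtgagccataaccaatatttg
Pair 2, left anchor, chr9:95540694-95540745, plus strand, between genes: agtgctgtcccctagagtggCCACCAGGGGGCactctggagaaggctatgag
Pair 2, right anchor, chr9:95688236-95688287, minus strand, in an intron of Pcolce2: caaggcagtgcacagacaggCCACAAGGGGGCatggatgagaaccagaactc
Pair 3, left anchor, chr7:122466270-122466321, plus strand, in an intron of Prkcb: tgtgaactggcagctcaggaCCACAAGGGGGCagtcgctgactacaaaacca
Pair 3, right anchor, chr7:122668068-122668119, minus strand, between genes: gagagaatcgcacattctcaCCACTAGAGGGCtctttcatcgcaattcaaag
The pair between Atg7, which encodes an enzyme of autophagy, and Vgll4, a cofactor of TEAD proteins, spanned 112 kb and had 19 (WT) and 25 (PATZ1 KO) contacts in ESCs and 4 and 3 in MNs. The pair ending in Pcolce2, a collagen-processing factor, spanned 152 kb and had 15 and 21 in ESCs and 7 and 4 in MNs. The pair from Prkcb, a protein kinase C gene, to the bin that holds the start of Cacng3, an AMPA receptor auxiliary subunit, spanned 200 kb and had 19 and 16 in ESCs and 1 and 4 in MNs. In all 3, both ESC libraries lay above both MN libraries, as the rule favours. The 8 neighbouring bin pairs held 1.39, 1.97 and 1.74 times the ring in ESCs and 0.983, 1.48 and 1.56 in MNs at these pairs in turn.

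Most anchors, however, held no gene start. Upstream sequences are shown for Sox2, a core pluripotency factor whose pair was among the strongest, and Pax1, a paired-box regulator of the sclerotome that lies in the one pair with genes of the list of developmental regulators starting at both ends. They are the 250 bases before the RefSeq transcript start in GRCm38, with CpG dinucleotides in capitals, since CpG-rich starts are where Polycomb and active promoters are found in ESCs.
Sox2, chr3:34649745-34649994, plus strand: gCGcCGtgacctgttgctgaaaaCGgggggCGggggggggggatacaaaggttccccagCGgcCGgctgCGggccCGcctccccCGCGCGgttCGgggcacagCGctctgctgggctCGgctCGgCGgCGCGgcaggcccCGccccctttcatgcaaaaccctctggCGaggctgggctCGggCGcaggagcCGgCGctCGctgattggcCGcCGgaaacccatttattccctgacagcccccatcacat
Pax1, chr2:147364744-147364993, plus strand: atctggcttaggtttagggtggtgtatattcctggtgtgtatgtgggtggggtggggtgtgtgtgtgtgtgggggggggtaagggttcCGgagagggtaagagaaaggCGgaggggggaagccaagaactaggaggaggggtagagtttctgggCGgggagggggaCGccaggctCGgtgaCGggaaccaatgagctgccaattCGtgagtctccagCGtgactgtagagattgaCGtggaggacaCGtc
The Sox2 sequence held 27 CpG, a number reached by 8.83% of 31396 autosomal RefSeq promoters, and the Pax1 sequence held 10, reached by 38.3%. The 1248 promoters that start in an anchor of an ESC-only pair had a median of 5 CpG in these 250 bases, and the other 30148 had a median of 6.

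The ESC-only pairs were faint and close-range, and the limits of the rule bear on both traits. Their summed ESC contacts ranged from 20 to 97 with a median of 22, and 3187 of them (53.1%) had 20 to 22. Only 603 had at least 30 contacts and 91 at least 40. The anchors lay 104 kb to 872 kb apart with a median of 160 kb, against 208 kb for pairs loop-like in both states and 176 kb for MN-only pairs. An MN ring of at least 2 was required of ESC-only pairs and not of pairs loop-like in both states. The part of this limit in the distances was not tested. The contacts of a pair over its ring had a median of 2.28 in ESCs and 0.882 in MNs.

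The limits cut through a continuum. Before joining, 1553 ESC-only pairs had exactly 20 ESC contacts, and 2160 pairs with 19 met every other limit. At the ESC fold limit the 3 nearest pairs inside stood at 2 times the ring and the 3 nearest outside at between 1.998 and 1.999. At the MN limit the 3 nearest inside had 1.199, 1.199 and 1.198 times the MN ring, and the 3 nearest outside had 1.2. At the limit on the MN ring the 3 nearest inside had a ring of 2 and the 3 nearest outside one of 1.99. With so few contacts the absence in MNs was often within counting error. Only 1995 of the 4925 pairs listed in MNs had a Poisson upper limit of the MN contacts below 2 times the MN ring. At the other listed pairs the upper limit reached 2 times the MN ring or more. A loop-like MN pair lay within 2 bins of 623 ESC-only pairs (10.4%) and within 5 bins of 1088 (18.1%). The ESC depth was 1.44 times that of the MNs over the autosomes, and when the least number of MN contacts was lowered in that proportion, a loop-like MN pair lay within 2 bins of 1854 (30.9%).

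**Figure D1:**
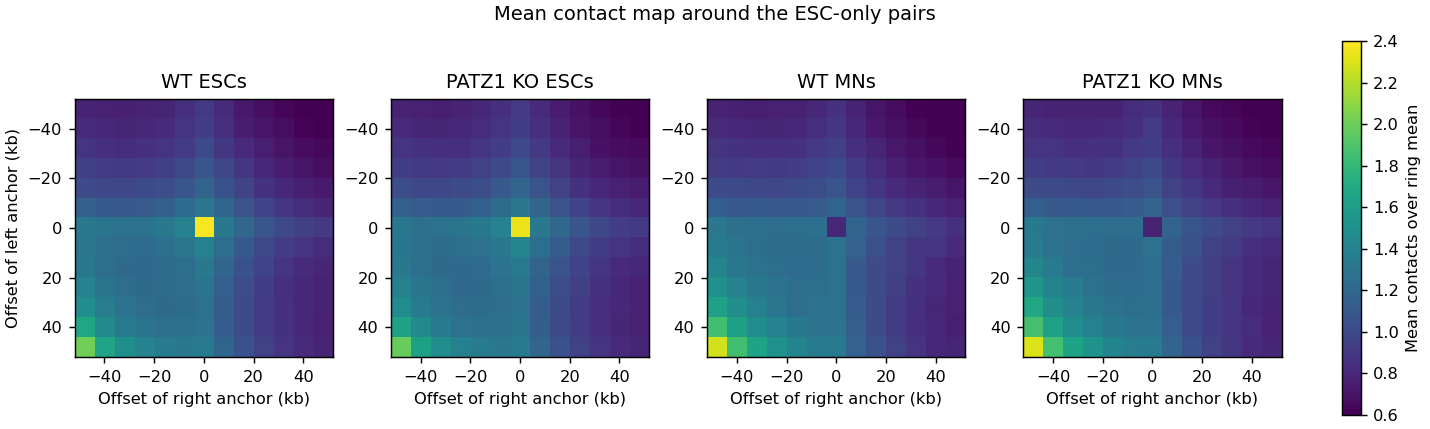
Mean contacts around the ESC-only pairs in each library, divided by the mean of the ring, with the offset of the left anchor (kb, vertical axis) and of the right anchor (kb, horizontal axis) in steps of 8 kb; 5583 pairs with anchors at least 14 bins apart and a full window are included. A single bright bin pair stands at the centre in both ESC libraries (2.39 and 2.35) and a single dark one in both MN libraries (0.804 and 0.777), both set by the rule, while the bins next to it are brighter in ESCs.

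The rule sets no limit on the 8 bin pairs next to a kept pair, but it joins pairs within 2 bins and sets the same ring against the pair itself. The values at these neighbours are therefore not independent of the choice and are given as a description. The 8 neighbours of the ESC-only pairs held 1.29 times the ring in WT ESCs (1.29 to 1.30) and 1.30 times in PATZ1 KO ESCs (1.30 to 1.31). The MN libraries had 1.17 times the ring with WT (1.17 to 1.18) and 1.16 times with PATZ1 KO (1.15 to 1.16). Over all 5093622 searched pairs with an ESC ring of at least 5 and an MN ring of at least 2, weighted to the same distances, the neighbours held 0.958 times the ring in ESCs and 0.943 in MNs. The surroundings of the ESC-only pairs thus stood above the ring in all 4 libraries, and further above it in the ESC libraries than in the MN libraries.

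With both libraries summed, the neighbours held 1.30 times the ring in ESCs and 1.17 in MNs, a log2 ratio of MNs over ESCs of -0.153 (-0.159 to -0.147). The ratio was -0.140 between the WT libraries, -0.168 between the PATZ1 KO libraries, -0.012 over all loop-like ESC pairs and -0.024 over all searched pairs of like rings. It was 0.0981 (0.0902 to 0.106) for pairs loop-like in both states, whose neighbours held 1.98 times the ring in ESCs and 2.12 in MNs, and 0.232 for MN-only pairs, with 1.23 in ESCs and 1.44 in MNs. These sets were chosen on their contacts in both states. Pair by pair, the neighbours over the ring were higher in ESCs than in MNs at 3964 of the 6002 ESC-only pairs (66.0%), beside 55.9% of all loop-like ESC pairs. They were above 1.5 times the ring at 24.4% of ESC-only pairs in ESCs and 15.9% in MNs, beside 32.6% and 30.3% of all loop-like ESC pairs.

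Subsets chosen on contacts that the rule also used are given in the same way. The 603 pairs with at least 30 ESC contacts had neighbours at 1.56 times the ring in ESCs and 1.28 in MNs (log2 ratio -0.282, -0.297 to -0.266). The 744 pairs joined from 2 or more had 1.59 and 1.23, a log2 ratio of -0.367 (-0.383 to -0.351). Such joining needs another pair within 2 bins to pass the ESC limit and the MN limits as well, so the choice bears on both values. The 5379 pairs with no loop-like MN pair within 2 bins had 1.25 and 1.11 (-0.175), and the 623 with one had 1.61 and 1.49 (-0.110). Among the 3982 pairs with an MN ring of at least 5, where fewer pairs go unlisted, the ratio was -0.154.

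**Figure D2:**
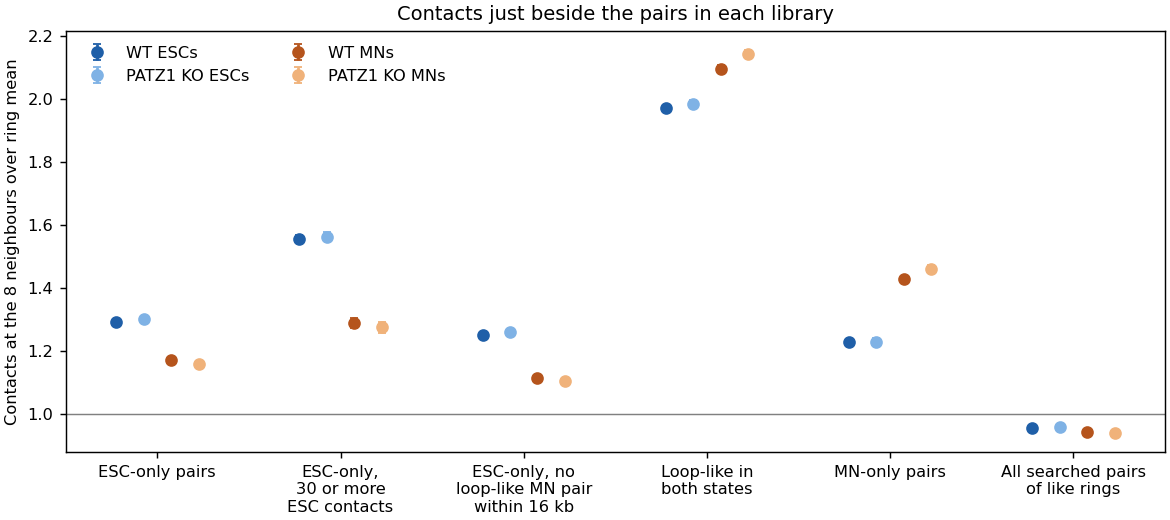
Contacts at the 8 bin pairs that adjoin a pair, over the ring mean (vertical axis, no unit), in each of the 4 libraries for the sets named on the horizontal axis; points are sums over all pairs of a set and bars are 95% Poisson intervals, mostly smaller than the points. The ESC libraries lie above the MN libraries for the ESC-only pairs (1.29 and 1.30 against 1.17 and 1.16) and below them for the pairs loop-like in both states and the MN-only pairs.

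Further out, the map was tilted differently in the 2 states. In the corner towards the inside of the interval, 3 to 5 bins from each anchor, contacts were 1.30 times the ring in both ESC libraries and 1.41 times in both MN libraries. In the corner towards the outside they were 0.703 in WT and PATZ1 KO ESCs alike, and 0.680 (WT) and 0.685 (PATZ1 KO) in MNs. Along the row of the left anchor, 3 to 5 bins off, they were 1.14 in both ESC libraries and 1.11 in both MN libraries. The inner corner holds pairs at shorter distance than the outer one, and no value at matched distance was computed.

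Chromosomes 6 and 8 stood apart in the number of pairs. They held 1645 of the 6002 ESC-only pairs (27.4%) on 11.5% of the autosomal bins, with 949 pairs on chromosome 6 and 696 on chromosome 8. Per 1000 bins these were 52.2 and 44.9 pairs, against 10.9 to 22.7 on the other 17 autosomes. The median contacts per bin of these chromosomes were 1.59 to 1.76 times the median over the autosomes in the 4 libraries, against 0.799 to 1.09 times on the others. The same chromosomes held 27.1% of all loop-like ESC pairs, 20.9% of pairs loop-like in both states and 37.1% of MN-only pairs. A fixed least number of contacts was applied to every chromosome, and the part of coverage in these counts was not tested. Without the 2 chromosomes the neighbours over the ring were 1.31 in ESCs and 1.17 in MNs, and the log2 ratio was -0.165.

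**Figure D3:**
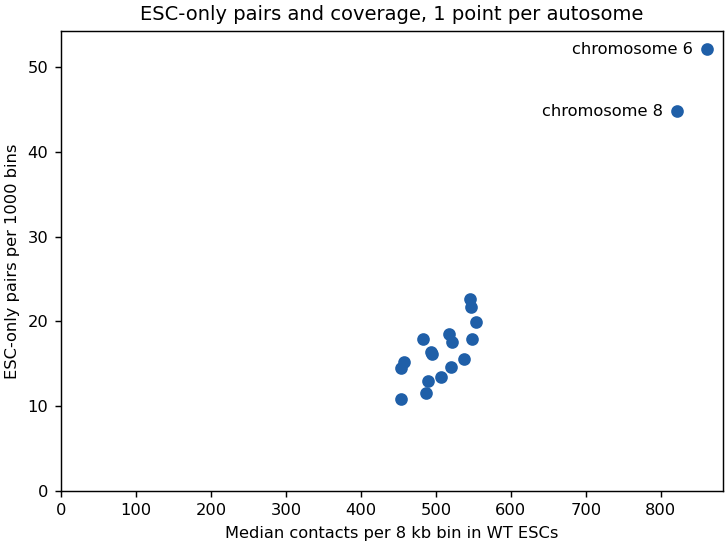
ESC-only pairs per 1000 bins of 8 kb (vertical axis) against the median contacts per bin in the WT ESC library (horizontal axis), with 1 point for each of the 19 autosomes. Chromosomes 6 and 8, with 52.2 and 44.9 pairs per 1000 bins, lie apart from the other 17, which have 10.9 to 22.7.

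Anchors were rarely shared between pairs. Of the anchor bins, 10496 belonged to 1 ESC-only pair, 651 to 2, 58 to 3 and 8 to 4. The 8 bins with 4 pairs lay on chromosomes 3, 6, 8 and 10, and 2 of them overlapped a protein-coding gene, Col25a1, a membrane collagen of neurons, and Necap1, an endocytosis factor. The Necap1 bin (chr6:122888001-122896000) had pairs of 24 to 30 ESC contacts and 0 to 3 in MNs, where 0 marks an unlisted pair of unknown sum. The bin chr8:63872001-63880000 had pairs of 20 to 23 ESC contacts, and all 4 were unlisted in MNs.

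The CTCF core motif was more frequent in the inward than in the outward direction. A forward motif was found in 7.08% (6.44 to 7.76) of left anchors and a reverse motif in 2.82% (2.41 to 3.27). Right anchors mirrored this, with a reverse motif in 7.31% (6.67 to 8.002) and a forward motif in 2.90% (2.49 to 3.36). Over all 293942 autosomal bins with contacts the shares were 2.75% forward and 2.72% reverse, so that the outward shares of the ESC-only pairs were near those of all bins.

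Pairs loop-like in both states had far more inward motifs, 23.2% (21.3 to 25.2) of left and 24.4% (22.5 to 26.5) of right anchors. They were also stronger, with a median of 31 ESC contacts against 22 at ESC-only pairs. The 603 ESC-only pairs with at least 30 ESC contacts had inward motifs in 9.29% (7.09 to 11.9) of left and 11.1% (8.72 to 13.9) of right anchors. The part of strength in the motif shares was not tested. MN-only pairs had 9.11% (7.51 to 10.9) and 9.64% (7.99 to 11.5), and all loop-like ESC pairs 10.1% (9.62 to 10.6) and 10.1% (9.55 to 10.6). Both motifs faced each other at 29 of 6002 ESC-only pairs (0.483%, 0.324 to 0.693), at 106 of 1814 pairs loop-like in both states (5.84%, 4.81 to 7.02) and at 5 of 1141 MN-only pairs (0.438%, 0.142 to 1.02). They faced away from each other at 6 ESC-only pairs. With 1 bin added on either side the shares were 2.38% (2.01 to 2.80), 11.2% (9.83 to 12.8) and 5.61% (4.35 to 7.11) in the same order of sets, so ESC-only lay below MN-only pairs there while their intervals overlap for the anchors alone. With a looser motif (any base in place of the last C of CCAC) they were 9.71% (8.98 to 10.5), 30.5% (28.4 to 32.7) and 11.7% (9.85 to 13.7), and 583 ESC-only pairs had facing and 317 had facing-away motifs. Pairs loop-like in both states had the highest share in each case, by a factor that depended on the motif. A motif is a match of letters and not a bound protein, since CTCF binding was not analysed here. Among the 835 ESC-only pairs with at least 1 inward motif the neighbours held 1.42 times the ring in ESCs and 1.24 in MNs, and among the 4889 with no core motif 1.27 and 1.15.

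**Figure D4:**
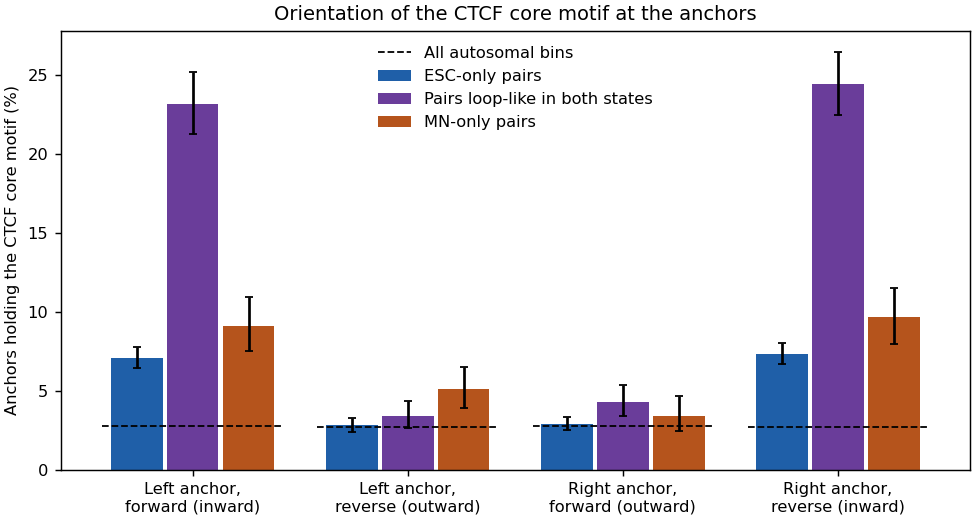
Share of anchors (%, vertical axis) that hold the CTCF core motif in each orientation, for left and right anchors (horizontal axis), in the ESC-only pairs, the pairs loop-like in both states and the MN-only pairs; bars carry exact 95% binomial intervals and dashed lines give the share of all autosomal bins. The inward shares of the ESC-only pairs (7.08% and 7.31%) exceed the dashed line and lie below those of the pairs loop-like in both states (23.2% and 24.4%).

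Gene starts were about as frequent at the anchors of ESC-only pairs as in any bin. A protein-coding gene of GENCODE started in 770 of their 12004 anchors (6.41%, 5.98 to 6.87) and in 6.21% of all autosomal bins. The share was 6.90% (6.61 to 7.21) at anchors of all loop-like ESC pairs, 9.84% (8.89 to 10.9) at those of pairs loop-like in both states and 9.38% (8.21 to 10.6) at MN-only anchors. By pair, a gene started in both anchors of 55 ESC-only pairs (0.916%, 0.691 to 1.19), in 1 anchor of 660 and in neither anchor of 5287 (88.1%). Both anchors held a gene start at 1.08% (0.909 to 1.26) of all loop-like ESC pairs. The share was 1.32% (0.849 to 1.96) for pairs loop-like in both states and 0.789% (0.361 to 1.49) for MN-only pairs. A CpG-rich window (500 bases with over 55% GC and a CpG ratio over 0.65) was found in 5.13% (4.74 to 5.54) of ESC-only anchors, 5.68% (5.41 to 5.96) of anchors of all loop-like ESC pairs, 10.4% (9.47 to 11.5) of those of pairs loop-like in both states, 11.5% (10.2 to 12.9) of MN-only anchors and 5.70% of all bins. The median GC content was 41.7% at ESC-only anchors and at those of all loop-like ESC pairs, 44.8% at anchors of both states, 44.4% at MN-only anchors and 41.4% over all bins. In 2121 ESC-only pairs (35.3%) neither anchor overlapped a protein-coding gene at all, a share that was not computed for the other sets or for all bins. Counted per anchor, gene starts and base composition of the ESC-only pairs thus lay near those of all loop-like ESC pairs and of all bins. The share with gene starts at both ends was not computed for pairs of bins at large.

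The contacts of the anchors to all other bins were similar in both states. Scaled to the autosomal totals, the summed contacts of both anchors had a median log2 ratio of MNs over ESCs of -0.0555 (quartiles -0.183 and 0.0770) at ESC-only pairs. The median was -0.0433 at all loop-like ESC pairs, 0.108 at pairs loop-like in both states and 0.204 at MN-only pairs. The part of coverage in the differences between these sets was not tested.

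Sox2 stood among the strongest members by both contacts and fold. Its pair joined the bin that holds the gene's start (chr3:34648001-34656000) to a bin 104 kb downstream (chr3:34752001-34760000) on the side of its known distal enhancers. In ESCs it had 37 contacts with WT and 22 with PATZ1 KO, and in MNs 3 and 1. The pair thus held 4.48 times its ring in ESCs and 0.597 times in MNs, and the neighbours held 2.59 times the ring in ESCs and 0.914 in MNs. In ESCs the PATZ1 KO over WT log2 ratio, each over its own ring, was -0.50 (-1.34 to 0.29), an interval that includes 0.

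The pair with the most contacts lay on chromosome 8, with no protein-coding gene in either anchor (chr8:18456001-18464000 to chr8:18560001-18568000). It had 56 (WT) and 41 (PATZ1 KO) contacts in ESCs and 2 and 3 in MNs, and its neighbours held 2.00 times the ring in ESCs and 0.944 in MNs. Apart from Sox2, the 10 pairs with the most contacts all lay on chromosomes 6 and 8. Among them a pair with an anchor in Etv6, an ETS-family repressor, spanned 288 kb and had 38 and 33 contacts in ESCs and 4 and 5 in MNs, each time with WT before PATZ1 KO, the order kept from here on. A pair from the start of Gsg1, a germ cell gene, had 38 and 30 in ESCs and 4 and 7 in MNs, and a pair within Palld, which encodes an actin-bundling protein, had 28 and 33 in ESCs and 5 and 5 in MNs. Both ESC libraries exceeded both MN libraries at each of them, as the rule and the ranking by ESC contacts favour. These counts are not scaled to depth.

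Several of them had a spot nearby in MNs. A loop-like MN pair lay within 2 bins of 5 of these 10 pairs, including those at Gsg1, Palld, the start of Etfbkmt, a mitochondrial methyltransferase, and the start of Art4, an ADP-ribosyltransferase. At Gsg1 the neighbours still held 1.72 times the ring in MNs against 2.41 in ESCs. At Etfbkmt they held 1.92 in MNs and 2.47 in ESCs. The fifth ran from Bcar1, an adaptor of focal adhesions, to Cfdp1, a chromatin protein, with 1.58 in MNs and 1.73 in ESCs.

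The pairs with the highest ESC fold, among those with an ESC ring of at least 5, reached 4.48 to 5.20 times the ring. The highest began at the start of Ifi202b, an interferon-inducible gene, with 20 and 12 contacts in ESCs. The Ifi202b bin had 2706 summed ESC contacts and the other anchor 1297, and the part of coverage in this fold was not tested. The pair was unlisted in MNs, yet a loop-like MN pair lay within 2 bins and its neighbours held 3.08 times the ring in MNs against 2.07 in ESCs. A pair on chromosome 19 with no protein-coding gene in either anchor (chr19:27440001-27448000 to chr19:27680001-27688000) had 16 and 24 contacts in ESCs and neighbours at 3.14 times the ring in ESCs and 1.52 in MNs. The pair from Cdkn2c, an inhibitor of cyclin-dependent kinases, to the start of Dmrta2, a regulator of the dorsal forebrain, had 11 and 14, with neighbours at 2.29 and 1.38. The pair ending at the starts of Lsr, a lipoprotein receptor, and Fam187b had 18 and 8, with neighbours at 2.05 and 1.71. These 4 pairs were all unlisted in MNs, where their rings held no more than 3.21 contacts. Besides the chromosome 8 pair above and Sox2, the other 4 were listed in MNs. The pair between Trub1, a pseudouridine synthase, and Atrnl1 had 17 and 16 contacts in ESCs and 3 and 3 in MNs, which was 1.13 times its MN ring. A pair on chromosome 3 (chr3:52248001-52256000 to chr3:52920001-52928000) had 13 and 14 in ESCs and 2 and 3 in MNs, 1.02 times its MN ring, with a loop-like MN pair within 2 bins. The pair from Nptn, a synaptic adhesion protein, and Rec114 to Neo1, a netrin receptor, had 15 and 11 in ESCs and 2 and 2 in MNs. Ano2, a chloride channel gene, had a pair with 14 and 9 in ESCs and 1 and 1 in MNs. The neighbours were lower in MNs than in ESCs at these 4 pairs, with 1.37 against 2.34 at Trub1 and 0.701 against 1.39 at Ano2.

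A list of developmental regulators was drawn up as genes held by Polycomb in ESCs. Neither Polycomb marks nor transcripts were measured here, and Gbx2 and Otx2 also stand in the list of pluripotency genes. Of these regulators, 14 of 123 with an autosomal start (11.4%, 6.36 to 18.4) began in an anchor of an ESC-only pair, beside 3.72% of all 20780 protein-coding genes. For pairs loop-like in both states the share was 7 of 123 (5.69%) beside 1.69% of all genes, and for MN-only pairs 6 of 123 (4.88%) beside 1.06%. Among all loop-like ESC pairs it was 26 of 123 (21.1%) beside 8.11%. The 14 at ESC-only pairs included Cdx2, Cyp26b1, Dlx2, Foxd1, Foxf1, Irx3, Nkx2-1, Nkx2-2, Nr2f2, Pax1, Sall1, Six3 and Tbx2, nearly all of them transcription factors of the early embryo. Cyp26b1, Irx3 and Tbx2 also began in anchors of MN-only pairs, and Irx3 in an anchor of a pair loop-like in both states.

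A single ESC-only pair had list genes at both ends. It joined the bin of the annotated start of Nkx2-2, a homeobox regulator of the ventral neural tube (chr2:147192001-147200000), to the bin of Pax1 (chr2:147360001-147368000), 168 kb away. It had 12 and 17 contacts in ESCs, 4.21 times its ring, and was unlisted in MNs. Its neighbours held 2.07 times the ring in ESCs and 1.22 in MNs. The RefSeq start of Nkx2-2 (position 147186402) lies in the adjoining bin, so the match at that end depends on the gene model.

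Nkx2-1, a homeobox regulator of the forebrain and thyroid, was joined to a bin within Pax9, a paired-box relative of Pax1, over 160 kb. It had 8 and 14 contacts in ESCs and was unlisted in MNs, with neighbours at 2.77 times the ring in ESCs and 1.09 in MNs. The pair from the start of Gsx1, a homeobox gene of the neural tube, to that of Cdx2, a regulator of trophectoderm and posterior identity, had 8 and 20 in ESCs, was unlisted in MNs, and had neighbours at 1.35 and 1.01. Dlx2, a forebrain homeobox gene, had 20 and 14 in ESCs and 5 and 3 in MNs, with neighbours at 1.89 in ESCs and 1.06 in MNs. Neighbours were lower in MNs than in ESCs at these 3 pairs and at the pair of Nkx2-2 and Pax1. The MN ring was 2.06 at Nkx2-1 and 2.36 at Nkx2-2 and Pax1, near the limit of 2. With so few contacts around them, little can be read from these 2 pairs being unlisted in MNs or from their MN neighbours. The MN ring was 7.17 at Gsx1 and Cdx2 and 9.18 at Dlx2. The pair of Gsx1 and Cdx2 stood at 2 times its ESC ring, which is the limit of the rule.

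Other regulators varied more. Tbx2, a T-box gene, had 14 and 10 contacts in ESCs and 3 and 3 in MNs, and neighbours at 1.77 in ESCs and 1.02 in MNs. Foxd1, a forkhead gene, with 12 and 11 in ESCs and 3 and 3 in MNs, had neighbours at 1.76 and 1.73, and Irx3, an Iroquois homeobox gene, with 16 and 11 in ESCs and 2 and 2 in MNs, had 1.42 and 1.30. For Nr2f2, an orphan nuclear receptor, and Sall1, a zinc finger gene of the kidney and limb, the neighbours were no lower in MNs, with 1.53 in ESCs and 1.61 in MNs at Nr2f2 and 1.12 and 1.13 at Sall1. Six3, a homeobox gene of the eye and forebrain, had 13 and 8 contacts in ESCs and 4 and 2 in MNs, with neighbours at 1.59 and 1.53. At Foxf1, a forkhead gene of the mesoderm, and Cyp26b1, an enzyme that degrades retinoic acid, a loop-like MN pair lay within 2 bins.

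The other lists had 1 or 2 genes each that began in an anchor, to be read beside the 3.72% of all protein-coding genes. Of 39 Hox genes, which set position along the body axis, 2 did (5.13%, 0.627 to 17.3), Hoxb7 and Hoxb8, which share a bin (chr11:96280001-96288000). That bin was joined to a site in Skap1, 272 kb away, with 9 and 12 contacts in ESCs, 5 and 3 in MNs, and neighbours at 2.24 times the ring in ESCs and 1.51 in MNs. It was also joined to a bin 104 kb to the other side, with 11 and 10 contacts in ESCs, 5 and 3 in MNs, and neighbours at 1.29 and 0.700. For MN-only pairs it was 7 of 39 Hox genes (17.9%) beside 1.06% of all genes, and for pairs loop-like in both states 5 (12.8%) beside 1.69%.

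Of 57 pluripotency genes, 2 began in an anchor (3.51%, 0.428 to 12.1), Sox2 and Fgfbp1, a carrier of fibroblast growth factors. The Fgfbp1 pair ran to the start of Prom1, a membrane protein of stem cells, with 5 and 15 contacts in ESCs and 4 and 2 in MNs, and its neighbours were higher in MNs (1.36) than in ESCs (1.19). Of 63 neural and motor neuron genes 1 did (1.59%, 0.0402 to 8.53), Irx3, which the list of developmental regulators also holds, and of 15 genes of architectural proteins 1 did (6.67%, 0.169 to 31.9), Rad21, which encodes a subunit of cohesin. The Rad21 pair had 12 and 12 contacts in ESCs and 2 and 1 in MNs, with neighbours at 1.74 times the ring in ESCs and 2.2 in MNs.

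The ESC-only pairs stood nearly as high over their rings in PATZ1 KO as in WT ESCs. Summed over the pairs, the WT library held 74838 contacts and the PATZ1 KO library 67971, or 2.38 and 2.35 times their own rings. This is a PATZ1 KO over WT log2 ratio of -0.018 (-0.033 to -0.0032). Over all 13579 loop-like ESC pairs it was -0.019 (-0.028 to -0.0092). The sign was not the same under every measure: the 8 neighbours gave 0.010 (0.0030 to 0.017) and the 603 pairs with at least 30 contacts gave 0.0071 (-0.032 to 0.046). Taken singly, 2738 of the 6002 pairs (45.6%) reached 2 times the ring in WT and PATZ1 KO ESCs each, and 5337 (88.9%) reached 1.5 times in each. The rule required 2 times the ring of the 2 libraries summed, so these shares partly follow from the choice and are a description. They were not computed for all loop-like ESC pairs.

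Pair by pair, PATZ1 KO over WT in ESCs was lower by at least 1.5 times at 1090 of the 6002 pairs (18.2%), beside 17.6% of all loop-like ESC pairs. It was higher by at least 1.5 times at 990 (16.5%), beside 15.9%. The median log2 ratio was -0.017, beside -0.021 over all loop-like ESC pairs. Both shares were near their background.

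**Figure D5:**
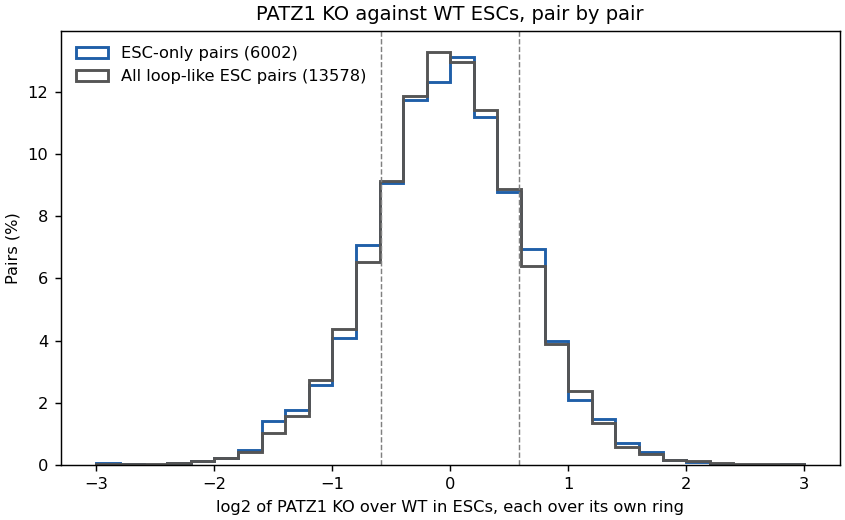
Distribution of the PATZ1 KO over WT log2 ratio in ESCs, each over its own ring (horizontal axis), as the share of pairs (%, vertical axis), for the ESC-only pairs and for all loop-like ESC pairs; values past 3 are drawn in the end bins and dashed lines mark a change of 1.5 times. The 2 outlines overlay each other around medians of -0.017 and -0.021.

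In MNs, where the pairs were chosen to be dim, 14513 contacts were counted in WT and 13635 in PATZ1 KO, or 0.805 and 0.779 times the ring. The log2 ratio was -0.047 (-0.080 to -0.013), and it was -0.018 (-0.027 to -0.0078) at the neighbours. Unlisted pairs count as 0 in these values. At the 4925 listed pairs WT held 0.927 and PATZ1 KO 0.904 times the ring, a log2 ratio of -0.036 (-0.070 to -0.0024). Over the pairs loop-like in both states the MN ratio was 0.159 (0.135 to 0.184), and over all loop-like ESC pairs it was 0.0281 (0.0129 to 0.0433). Among the 4925 pairs listed in MNs, PATZ1 KO was lower by at least 1.5 times at 1593 (32.3%) and higher at 1488 (30.2%), beside 27.2% and 28% of all loop-like ESC pairs. A median of 5 MN contacts per pair, with unlisted pairs counted as 0, lies behind these values, so single pairs were poorly measured in MNs.

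At single pairs the interval of the PATZ1 KO over WT ratio in ESCs left out 0 on the low side at 113 of 6002 ESC-only pairs (1.88%), beside 1.88% of all loop-like ESC pairs, and on the high side at 102 (1.70%), beside 1.59%. Both shares were near their background. Among the 91 pairs with at least 40 ESC contacts, the lowest ratio of PATZ1 KO over WT lay between Borcs5, a lysosome positioning factor, and Dusp16, a phosphatase of JNK, with 35 and 14 contacts in ESCs (log2 ratio -1.09, -2.10 to -0.16). The pair from the start of Zfp90, a zinc finger repressor, to Cdh3, which encodes P-cadherin, had 36 and 16 (-1.01, -1.95 to -0.12). At the other end, a pair in Prickle2, a planar polarity gene, had 14 and 27 (1.05, 0.064 to 2.09). The others of the 5 lowest and 5 highest had intervals that include 0. They comprised the Sox2 pair and a pair from Rapgef2, a Rap exchange factor, on the low side, and pairs in Mybpc1, a myosin-binding protein, and Bmp2k, a kinase, on the high side, besides pairs on chromosomes 6 and 19 with no protein-coding gene in either anchor. These extremes were picked from 91 pairs for their ratio, so their size is a description.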

How the data were processed

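Micro-C was performed by the authors with a Dovetail kit, with 1 library in each group, and the company made the contact matrices and compared PATZ1 KO with WT. The build was mm10 according to the submitters' processing notes. The deposited interaction frequencies are raw contact counts per pair of 8 kb bins. A second pair of columns, adjusted for bias between WT and PATZ1 KO by the authors, holds a signal and served as an alternative. Columns of the authors' comparison (log ratio, score, p and adjusted p) were not used. On the autosomes the ESC libraries held 166052904 (WT) and 154422469 (PATZ1 KO) listed contacts and the MN libraries 108195604 and 113628498. Ratios are of summed contacts over summed rings, with exact binomial intervals that take the ring as known. Genes were from GENCODE M21 and sequence from GRCm38. The steps were tested on simulated data in Python 3.11.15 with SciPy 1.17.1.

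Named pairs were the 10 with the most ESC contacts, the 10 of highest fold with an ESC ring of at least 5, the 5 lowest and 5 highest in PATZ1 KO over WT with at least 40 ESC contacts, pairs with list genes in both anchors, and the anchors in most pairs (8 tied). Pairs with facing motifs or with a list gene in 1 anchor, and the comparison of neighbours between states, were added after values were seen. Pairs and lists were chosen with earlier results of these data known. Shares carry exact binomial intervals. The values of 1 list gene are not reported here.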

Additional observations from a re-analysis of the deposited data

How the results depend on the processing

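The number of ESC-only pairs was 604 with at least 30 contacts, 1810 with at least 2.5 times the ring, 739 with the least contacts scaled to depth, and 1995 where the upper limit of the MN contacts had to lie under 2 times the ring; it ranged from 4018 to 8630 under the other settings. PATZ1 KO over WT in ESCs, a log2 ratio of -0.018, was 0.0049 over the 3 by 3 pairs, 0.010 at the 8 neighbours and 0.0071 with at least 30 ESC contacts, and -0.034 when scaled to the autosomal total with no ring. In MNs the ratio of -0.047 became -0.161 with the same scaling. It was -0.020 over the 3 by 3 pairs, -0.027 as the median of the pairs and -0.071 with at least 30 ESC contacts. A gene start in both anchors was found at 3.07% of pairs with all annotated genes and at 4.98% with 1 bin added on either side. Facing CTCF motifs were found at 2.38% with 1 bin added, at 9.71% with a looser motif (any base in place of the last C of CCAC) and at 0.995% of pairs with at least 30 contacts. The neighbours in MNs over ESCs gave -0.140 in the WT libraries, -0.168 in the PATZ1 KO libraries, -0.165 without chromosomes 6 and 8, -0.282 with at least 30 ESC contacts and -0.175 with no loop-like MN pair within 2 bins. The cause of these shifts was not tested. The comparison of neighbours between states and the settings on chromosomes 6 and 8, on 30 contacts for the ratios and shares, on neighbours, on nearby MN pairs, on the upper limit and on listed pairs were chosen after seeing the data. No paired analysis was possible because each group had 1 library and the labels give no replicate numbers, and no library could be left out.

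Depth limits single pairs, since the median pair rests on 22 ESC and 5 MN contacts.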
